A study of Xenopus laevis with 6 samples.

Results

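The comparison set Xenopus laevis animal caps injected with ERK3 MO3 against caps injected with ERK3 MO1/2, the pair of reagents that the study used against the same kinase. The members are 4 of the 6 arrays of the series, chosen by the injected morpholino named in the labels: 1 MO3 array and 1 MO1/2 array from untreated caps, and 1 of each from caps cultured with activin plus retinoic acid (activin/RA). The labels name no strain or genotype. MO3 was given at 80 ng, and MO1/2 was a mixture of MO1 and MO2 at 40 ng each. The control arrays, 1 per culture, came from caps with 80 ng of a control morpholino, and they were used only to describe where the control signal lay. In every group each blastomere of the 4-cell embryo was injected on its animal side, and caps taken at stage 9 were collected for RNA at stage 15. Each array came from a single experiment, and the labels do not say whether the caps of both cultures came from the same injected embryos or how many caps were pooled.

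A morpholino is a stable antisense oligonucleotide that binds a chosen RNA and blocks its translation or its splicing. Because any single oligonucleotide may also bind other RNAs, or may lower its target more or less completely, knockdown studies commonly inject a second, non-overlapping reagent against the same target and ask which effects both share. The gene mapk6 encodes ERK3, a MAP kinase that lacks the usual activation motif of its family. Its transcript was not analysed here, since no tested probe set was listed under that symbol, and a morpholino that blocks translation need not change the level of its target RNA. The animal cap is the ectoderm of the blastula roof, which turns into ciliated epidermis if left untreated, while activin drives it towards mesodermal and endodermal fates.

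The values are log2 signals of 32539 probe sets (sets of short probes for 1 transcript) on Affymetrix Xenopus laevis Genome 2.0 arrays, and every difference below is MO3 minus MO1/2 on that scale, so that 1 is 2-fold. Genes said to rise or fall are higher or lower with MO3 than with MO1/2, whatever their place against the control. Array medians of the log2 signal ranged from 5.08 to 5.14. Across probe sets, which are not independent replicates, the MO3 and MO1/2 arrays of untreated caps had a Pearson r of 0.992 and those of activin/RA caps one of 0.993. Of 10 epidermal marker genes fixed in the design, 5 lay above the median of all values with MO1/2 and 6 with MO3 in untreated caps, and 9 with either reagent in activin/RA caps. Their median signal was 5.43 with MO1/2 and 6.37 with MO3 in untreated caps, and 7.41 and 6.75 in activin/RA caps. Of 5 endodermal markers 1 lay above that median in untreated and 5 in activin/RA caps with either reagent, and of 4 pronephric markers 0 and 2 did, with lhx1.L and osr1.L above it in activin/RA caps while pax8.L never exceeded 3.11. Of 4 blood and endothelial markers the globin genes hba1.S and hba3.L and the regulator tal1.S lay between 1.63 and 2.49 on all arrays, and the endothelial receptor gene tek.S had 7.12 with MO1/2 and 6.83 with MO3 in untreated caps and 3.02 and 2.68 in activin/RA caps. As signs of RNA quality, the 3′ minus 5′ log2 signal of the gapdh control probe sets was 0.83 with MO1/2 and 0.85 with MO3 in untreated caps, and 1.15 and 0.73 in activin/RA caps. The median signal of 9 hybridisation controls was 9.37 and 9.39 in untreated caps and 9.22 and 9.43 in activin/RA caps. The part of these values in the results was not tested.

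With MO3 the cilium regulator foxj1.S stood 2.03 higher than with MO1/2 in the mean of the cultures, the secreted protein gene wfdc2.L 2.93 higher and the fatty acid-binding protein gene fabp4.L 1.95 higher, while the glycogen phosphorylase gene pygb.S fell by 1.97. Among 32539 probe sets, 472 were higher (1.45% of all) and 323 lower (0.993%) with MO3 by limma with culture as a block and an adjusted p under 0.05, 2.44% of all in either direction. Of these 795, 794 had the same direction in both cultures and make up the set described here, 471 higher and 323 lower. The other one, aplnr.L, differed by 2.15 in untreated caps and by -0.08 with activin/RA. The test weighs the mean difference of both cultures against their disagreement. A shared direction among called probe sets is thus largely built in and adds no separate evidence. The median size of a called difference was 0.74, against 0.13 over all probe sets, and 108 called differences reached 1. These calls rest on 2 arrays per reagent with 1 residual degree of freedom, and the cultures are not known to be independent. limma drew the variance of each probe set towards a trend over all probe sets, weighted as 22.1 prior degrees of freedom. Each p-value thus rests mostly on that shared variance and little on the probe set's own spread. It covers no more than the variation among these arrays, which may be technical. When the control arrays entered the same limma model, the differences kept their values, 0 probe sets passed (smallest adjusted p = 0.108) and 1973 had an unadjusted p under 0.05, among them 689 of the 795.

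Without a test, 44 probe sets were at least 2-fold apart in the same direction in both cultures, 31 higher (0.0953% of all) and 13 lower (0.04%) with MO3. In untreated caps alone 315 probe sets were at least 2-fold apart between the reagents, 253 higher and 62 lower with MO3, and in activin/RA caps 228, with 114 in each direction. Against the control array of the same culture, MO1/2 differed at least 2-fold at 3022 probe sets and MO3 at 1783 in untreated caps, and at 783 and 599 in activin/RA caps; both of these counts share their control array. Across all probe sets the reagent difference in untreated caps correlated with that in activin/RA caps at r = 0.30, and at 0.39 among the 16356 probe sets whose mean signal lay above the median of all values. These correlations are across probe sets that share arrays and normalization. The sign was the same in both cultures for 55.4% of all probe sets, with 25.9% higher and 29.6% lower with MO3.

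**Figure D1:**
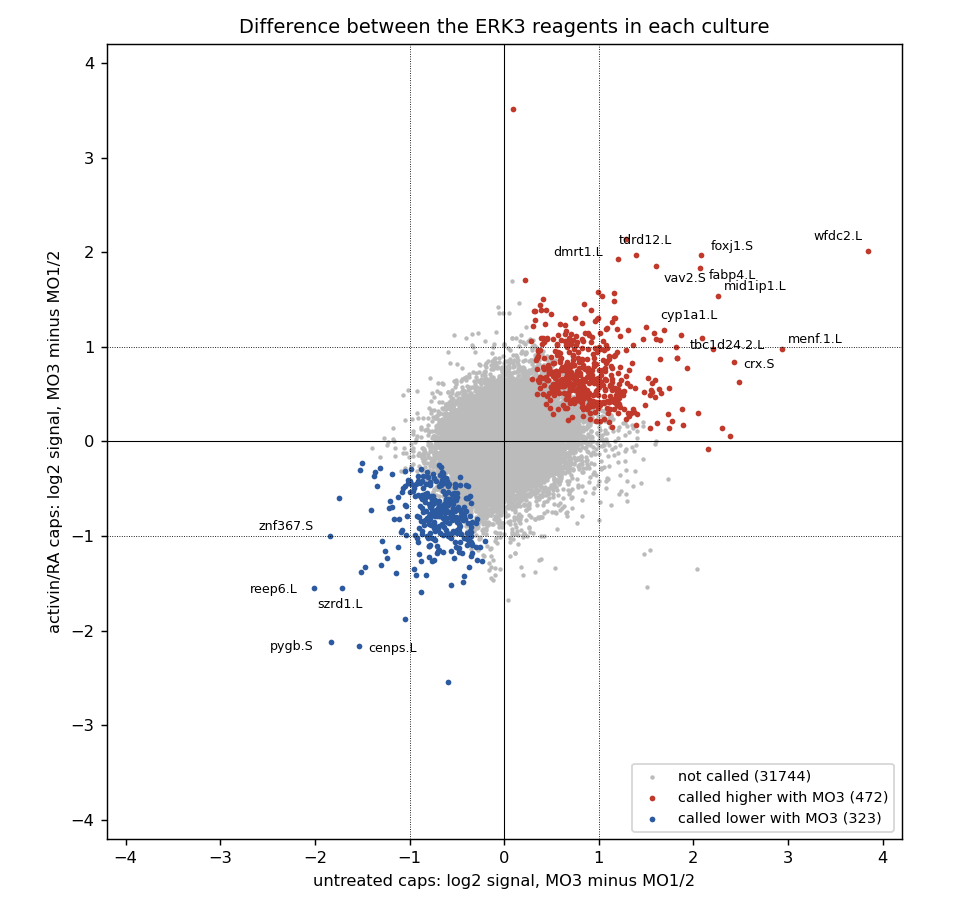
Log2 difference between the ERK3 reagents (MO3 minus MO1/2) in untreated caps on the x axis, and in activin/RA caps on the y axis, 1 point per probe set, with dotted lines at 2-fold and names of genes with a mean difference of at least 1.4. The 472 called higher and 323 called lower fill the upper right and lower left, with wfdc2.L farthest out at 3.84 and 2.02 and aplnr.L just below the horizontal zero line.

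All 12 named genes that were higher with MO3 had their lowest signal with MO1/2 in each culture, below the control as well. The signal of wfdc2.L, which encodes a small secreted protein of the whey acidic protein family, was 5.03 with MO1/2 and 8.87 with MO3 in untreated caps, and 7.04 and 9.06 in activin/RA caps. The control arrays held 9.52 and 9.04, so that only the MO1/2 arrays stood low (difference 2.93 ± 0.24 SE, n = 2 arrays per reagent, limma adjusted p = 1.55e-07). Each SE given here and below is limma's moderated one, drawn towards a variance trend over all probe sets. It can be far smaller than the gap between the cultures, here 3.84 in untreated against 2.02 in activin/RA caps. foxj1.S, the forkhead gene that switches on motile cilium formation, had 3.95 with MO1/2 and 6.04 with MO3 in untreated caps against 7.95 in the control, and 5.31 and 7.28 in activin/RA caps against 7.55. Its MO3 signal lay between the other arrays in each culture (difference 2.03 ± 0.18 SE, limma adjusted p = 4.09e-07). In such bulk samples fewer ciliated cells and less foxj1 RNA per cell cannot be told apart. The Otx-family homeobox gene crx.S had 3.39 with MO1/2, 5.82 with MO3 and 7.06 in the control in untreated caps, and 4.30, 5.13 and 5.64 in activin/RA caps. tbc1d24.2.L, a member of a family of Rab GTPase regulators, followed the same order with 2.91, 4.78 and 7.02, and with 4.41, 5.54 and 6.74.

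Other named genes encode carriers and enzymes. fabp4.L, which encodes a carrier of fatty acids, had 6.32 with MO1/2 and 8.39 with MO3 in untreated caps, and 6.50 and 8.33 in activin/RA caps. Its controls lay between the reagents at 7.30 and 7.55, so the reagents moved apart on either side of them (difference 1.95 ± 0.15 SE, limma adjusted p = 1.39e-07). mid1ip1.L, whose mammalian counterpart promotes fatty acid synthesis, differed by 2.26 in untreated and 1.54 in activin/RA caps. cyp1a1.L, the dioxin-inducible cytochrome P450, had 3.96 with MO1/2 and 5.64 with MO3 in untreated caps, and 2.91 and 4.09 in activin/RA caps. retsat.L, which encodes the enzyme that saturates retinol, differed by 1.23 and 1.12.

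For vav2.S, tdrd12.L, dmrt1.L, ddx25.L and reep5.L the difference was larger in activin/RA caps than in untreated caps. The signal of vav2.S was 5.03 with MO1/2 and 6.63 with MO3 in untreated caps and 4.92 and 6.78 in activin/RA caps, with controls at 6.83 and 6.61. For tdrd12.L, a Tudor-domain gene of the piRNA pathway in the mouse germ line, these values were 5.57 and 6.96, then 4.67 and 6.64, with controls at 6.49 and 6.57. In both genes the MO1/2 arrays stood apart and the MO3 arrays lay within 0.48 of their controls. The testis regulator gene dmrt1.L differed by 1.21 and 1.92, and the germ plasm helicase gene ddx25.L by 1.03 and 1.54. reep5.L, which shapes the endoplasmic reticulum, had 7.07 and 8.22 in untreated caps and 6.60 and 8.17 in activin/RA caps, with controls at 8.53 and 8.21. menf.1.L differed by 2.94 in untreated caps, where its MO1/2 signal of 2.53 was near the bottom of the scale, and by 0.98 in activin/RA caps.

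The named genes lower with MO3 included metabolic and mitochondrial enzymes, cell cycle genes and Hairy-family repressors. pygb.S had 5.45 with MO1/2 and 3.63 with MO3 in untreated caps, and 5.59 and 3.46 in activin/RA caps, with controls at 3.84 and 3.18. The MO1/2 arrays alone were high for this probe set (difference -1.97 ± 0.19 SE, limma adjusted p = 2.05e-06). reep6.L, a relative of reep5, showed the reverse arrangement: MO1/2 at 9.19 and 8.99 lay beside the controls at 8.82 and 8.75, and the MO3 arrays were low at 7.18 and 7.44 (difference -1.77 ± 0.15 SE, limma adjusted p = 1.55e-07). It was the only one of the 24 named genes whose control lay nearer MO1/2 in both cultures. The kinetochore gene cenps.L had 7.06 with MO1/2 and 5.52 with MO3 in untreated caps, and 5.87 and 3.71 in activin/RA caps, with controls at 4.74 and 4.78. szrd1.L had 8.40 and 6.69, and 7.92 and 6.38, with controls at 6.80 and 7.09.

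fbxo43.L encodes Emi2, the factor that holds the frog egg in metaphase by inhibiting the anaphase-promoting complex. Its signal was 7.86 with MO1/2 and 6.62 with MO3 in untreated caps against 4.88 in the control, and 5.37 and 4.14 in activin/RA caps against 4.54. Both reagents lay above the untreated control and only MO1/2 above the activin/RA control, and the reagents differed by -1.24 in each culture. The mitochondrial ATPase gene atad3a.L differed by -1.12 in each culture and the mitochondrial enzyme gene auh.S by -1.04 and -0.99. rxylt1.S, a glycosyltransferase gene of the dystroglycan sugar chain, differed by -1.26 and -1.16, the zinc-finger gene znf367.S by -1.84 and -0.9965 and the circadian gene cipc.S by -0.91 and -1.06. Of the Hairy-family repressors, esr-5.L had 5.298 with MO1/2, 4.34 with MO3 and 3.21 in the control in untreated caps, and 7.53, 6.18 and 7.77 in activin/RA caps. hes7.2.L had 5.26, 4.17 and 3.37, and 6.75, 5.79 and 6.72. The control of these 2 genes lay on the MO3 side in untreated caps and on the MO1/2 side in activin/RA caps. The 24 named genes had limma adjusted p-values between 1.39e-07 and 0.00208, and between 0.108 and 0.876 when the control arrays entered the model.

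**Figure D2:**
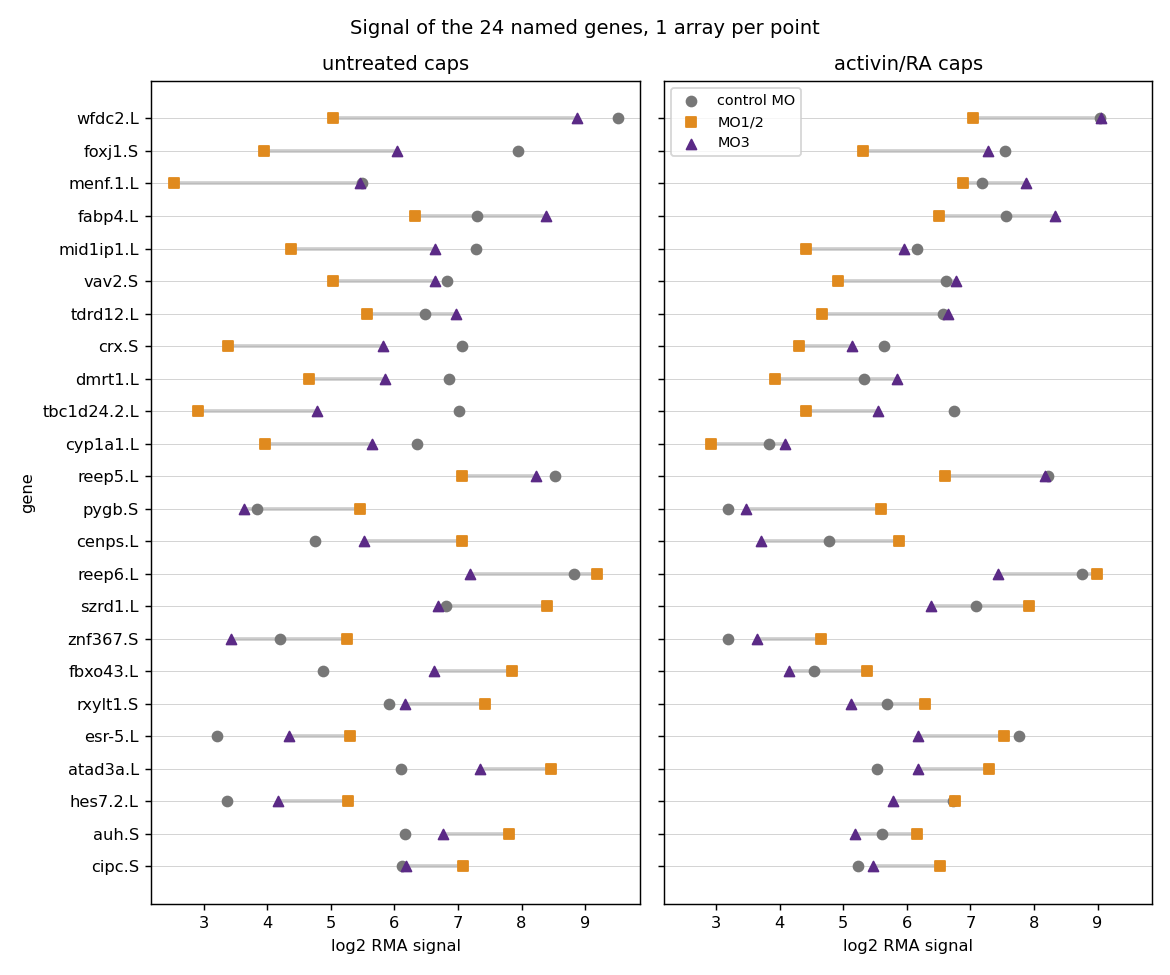
Log2 RMA signal of the 24 named genes on each array, untreated caps on the left and activin/RA caps on the right; grey circles are control morpholino, orange squares MO1/2 and purple triangles MO3, and a bar joins the ERK3 reagents. In the upper 12 genes the MO3 triangle lies right of the MO1/2 square in both cultures, and in the lower 12 left of it, and for reep6.L the control circle lies beside MO1/2.

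The 44 probe sets at least 2-fold apart in both cultures stood for 30 genes with a single symbol, 23 higher and 7 lower, and for 12 probe sets without one. For 22 of the 44 the differences in the cultures lay within 0.25 of each other. All 44 also passed the limma test (largest adjusted p = 0.000805). They had been chosen for large differences of the same direction on the same arrays, so passing adds no separate evidence. Besides the genes above, the higher ones included 3 probe sets of the tyrosyl-tRNA synthetase gene yars1.S (1.05, 1.24 and 1.24), the thrombospondin gene thbs1.S (1.27), the kinetochore gene nuf2.L (1.199), the proteasome subunit gene psmc3.L (1.19) and the ubiquitin ligase gene rnf34.L (1.19). The claudin gene cldn7.L had 8.94 with MO1/2 and 10.02 with MO3 in untreated caps on its most different probe set, and 8.61 and 9.79 in activin/RA caps, with controls at 10.004 and 9.59. Its other probe sets differed less, down to 0.08. The ATP synthase gene atp5mc1.S (1.08), the amino acid transporter gene slc43a2.L (1.23), the carbonic anhydrase gene ca14.L (1.35), arhgap36.L (1.60) and the endosomal GTPase gene rab5d.L (1.05) completed the higher genes. Second probe sets of rab5d.L (-0.13), rnf34.L (-0.05) and psmc3.L (0.01) differed little.

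The control signal was not used to choose the called set, but its place is measured against the MO3 and MO1/2 signals that were. The shares are thus not independent of that choice. Over all probe sets the median size of the difference between the reagents was only 0.13. The control lay nearer MO3 than MO1/2 in both cultures for 327 of the 471 called higher and 208 of the 323 called lower, 67.4% of the 794, against 32.8% of all probe sets. It lay nearer MO1/2 in both cultures for 46 and 37, 10.5% of the 794, against 19.9% of all. The called higher probe sets had a median change from the control of -1.24 with MO1/2 and -0.40 with MO3 in untreated caps, and of -0.68 and 0.03 in activin/RA caps. The called lower ones had medians of 0.94 and 0.25 in untreated caps, and 0.64 and -0.09 in activin/RA caps. These pairs of values share their control array and are a description with no test. MO3 had the highest of the 3 signals in both cultures for 120 of the 471 called higher probe sets, fabp4.L and tdrd12.L among them. It had the lowest for 85 of the 323 called lower ones. The matching share of all probe sets was not counted, so these 2 counts have no background to be read against.

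**Figure D3:**
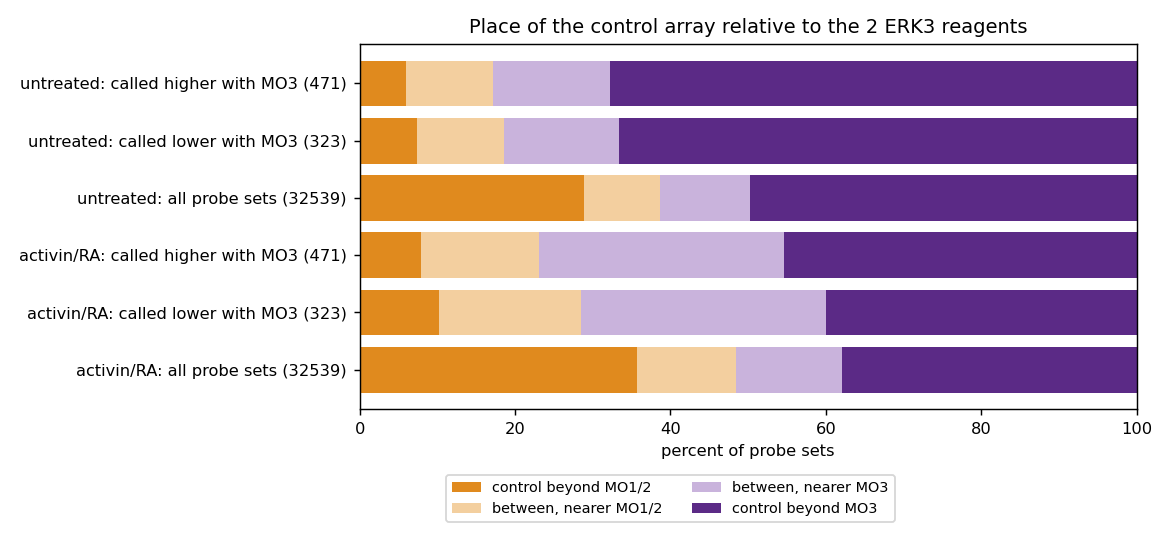
Share of probe sets (percent) by where the control array of the same culture lay relative to MO1/2 and MO3, for called higher (471), called lower (323) and all 32539 probe sets in each culture. Purple shades (control nearer MO3) fill 82.8% and 81.4% of the called bars in untreated caps and 76.9% and 71.5% in activin/RA caps, against 61.4% and 51.5% of all probe sets.

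Xenopus laevis is allotetraploid, and most genes have a long (.L) and a short (.S) subgenome copy, which can share probes. Taking for each of 11303 symbols the probe set with the highest mean signal, 228 genes were called higher (2.02%) and 161 lower (1.42%) with MO3, 3.44% in either direction. Of 6512 genes on the long subgenome 210 were called (3.22%), and of 4364 on the short subgenome 168 (3.85%). The other copy was measured for 164 called genes: 144 of these copies had the same sign in the mean difference, 28 were called the same way and 0 the opposite way by limma. Among all 2009 genes with both copies measured the sign matched for 58.3%. A gene with both copies called enters the counts of called genes under each copy, but the 2009 only under its .L copy. The 2 shares are thus not directly comparable. foxj1.L moved with its copy (0.85 in untreated and 1.14 in activin/RA caps, limma adjusted p = 0.00393), and slc43a2.S (1.15) with slc43a2.L. The other measured copies of named or 2-fold genes did not pass. Those of genes higher with MO3 were crx.L (0.63 and 0.81), reep5.S (0.55), nuf2.S (0.43), mid1ip1.S (0.26), cyp1a1.S (0.12), thbs1.L (0.08) and atp5mc1.L (0.06), and psmc3.S (-0.15) and rab5d.S (-0.23) had the opposite sign. Those of genes lower with MO3 were fbxo43.S (-0.74) and atad3a.S (-0.30). Of these copies mid1ip1.S and thbs1.L were weak, at or below 3.32 and 2.62 on all arrays. Of 103 called genes with several probe sets, 78 had every probe set on the same side and 19 had every one called. Among the named genes, other probe sets of vav2.S (-0.10), crx.S (-0.01), pygb.S (-0.03) and hes7.2.L (-0.12) differed less. Those of vav2.S, crx.S and pygb.S lay at or below 2.34, 1.99 and 2.71 on all arrays, where a difference could hardly show. Another pygb.S probe set, with signals up to 5.32, differed by -0.60. The probe sets of cenps.L ranged from -1.85 to -0.41 and those of esr-5.L from -1.15 to -1.01. At the edge of the called set stood ate1.L (difference -0.68), the last named inside, and sdhd.L (-0.53), the first outside.

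BMP targets and epidermal transcription factors had the highest list medians in untreated caps and in the cultures' mean, but not in activin/RA caps. BMP ligands direct ectoderm to epidermis through these homeobox, GATA, Id and Grainyhead-like regulators. Both lists hold the same ventx, dlx, msx and gata genes, so their medians are not separate results. Of 31 BMP targets 7 rose with MO3 relative to MO1/2 and 0 fell, against 2.02% and 1.42% of all genes, and the median difference was 0.35 (0.35 in untreated and 0.11 in activin/RA caps) against -0.01 over all genes. In both cultures 21 of the 31 were higher with MO3 and 2 lower, where 26.8% and 30.3% of all genes were. The ventralising homeobox gene ventx3.2.S had 3.77 with MO1/2, 5.598 with MO3 and 7.56 in the control in untreated caps, and 6.81, 7.69 and 7.66 in activin/RA caps. Its MO3 signal was intermediate in untreated caps and beside the control in activin/RA caps (difference 1.36 ± 0.20 SE, limma adjusted p = 0.000262). The secreted BMP feedback regulator sizzled rose in both copies, szl.S by 0.94 and szl.L by 0.73. Of the Id genes, direct BMP targets that block basic helix-loop-helix factors, id4.S rose by 0.85, id2.S by 0.60 and id3.S by 0.50. The copies id2.L (0.36) and id3.L (0.26) did not pass by limma.

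Of 27 epidermal transcription factors 5 rose and 0 fell, against 2.02% and 1.42% of all genes. Their median was 0.32 (0.45 in untreated and 0.06 in activin/RA caps). The homeobox gene dlx3.S had 3.84 with MO1/2, 5.72 with MO3 and 8.34 in the control in untreated caps, and 6.18, 6.52 and 8.06 in activin/RA caps. The order for dlx3.S was thus the same in both cultures and the gap between the reagents was larger in untreated caps (difference 1.11 ± 0.24 SE, limma adjusted p = 0.012). Its copy dlx3.L differed by 1.16 in untreated and -0.15 in activin/RA caps and did not pass (limma adjusted p = 0.356). foxi1.L, which specifies ionocytes, differed by 1.21 and 0.46, the Grainyhead-like gene grhl3.L by 1.18 and 0.42 and the Kruppel-like gene klf17.L by 1.09 and 0.30. The copy grhl3.S differed by 0.57 and 0.07 and did not pass. Against their shared control arrays, the list's medians were -1.56 with MO1/2 and -1.06 with MO3 in untreated caps, and -0.67 and -0.37 in activin/RA caps. The epidermal marker median given above was higher with MO3 in untreated caps and lower in activin/RA caps. Of those markers dlx3, grhl3, grhl1 and tfap2a belong to this list, and only krt12.4 and itln1 do not. The marker median is thus no separate evidence, and the markers' part here was not tested.

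**Figure D4:**
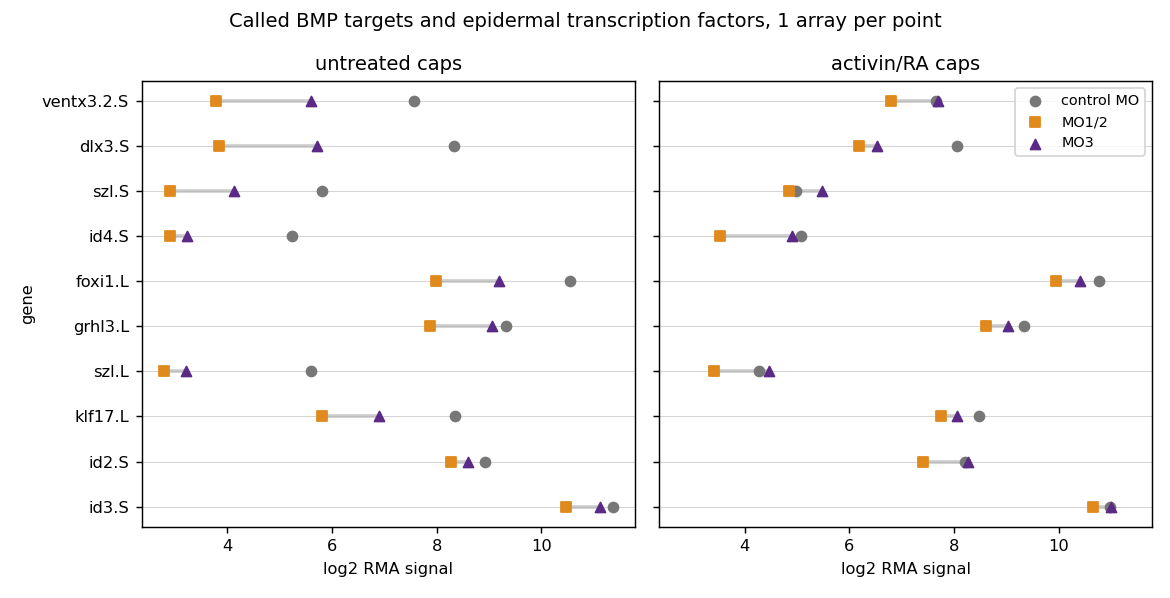
Log2 RMA signal of the 10 called BMP targets and epidermal transcription factors on each array, untreated caps left and activin/RA caps right, with symbols as for the named genes. In untreated caps the order from low to high is MO1/2, MO3, control for all 10 genes, and in activin/RA caps the MO3 triangle of ventx3.2.S, szl.S, szl.L, id2.S and id3.S lies at or right of the control.

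Of 24 keratins and epidermal structural genes 0 rose and 1 fell, and 7 were higher and 9 lower in both cultures (median -0.02). Of all genes 2.02% rose and 1.42% fell, and 26.8% were higher and 30.3% lower in both cultures. The one that fell, krt12.2.S, had signals between 1.92 and 4.04 on the 4 arrays. The abundant keratin gene krt7.L had 7.76 with MO1/2 and 9.21 with MO3 in untreated caps, and 10.08 and 9.65 in activin/RA caps, and its 5 probe sets ranged from -0.53 to 0.51. krt12.5.S likewise differed by 1.73 in untreated and -0.40 in activin/RA caps, and neither passed (limma adjusted p = 0.366 and 0.312). Of 28 genes of multiciliated cells 3 rose: both copies of foxj1 and the tubulin gene tubb4b.S (0.42). The list median was 0.06, and 11 of its genes were higher and 5 lower in both cultures. The ciliary gene cfap52.L (0.55) and the regulator foxn4.S (0.44) did not pass. Neither did ccno.L (0.01), rfx2.S (0.02) and tekt1.L (-0.31). Of 15 ionocyte genes 2 rose, foxi1.L and the proton pump subunit gene atp6v0d2.L (0.72), and the carbonic anhydrase gene ca12.L fell by 0.73. Of 15 mucus, secretory and gland cell genes 0 passed by limma (median -0.06).

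Neural crest regulators held called genes in both directions. Of 29 genes 6 rose and 2 fell, against 2.02% and 1.42% of all genes, with a median absolute difference of 0.35 against 0.12 over all genes. snai2.L, a zinc-finger repressor at the neural plate border, had 1.65 with MO1/2 and 2.64 with MO3 in untreated caps, and 2.89 and 4.47 in activin/RA caps, with controls at 2.203 and 2.98. All of these signals were below the median of all values. snai2.S differed by 1.195 and 0.42. The forkhead gene foxd3.L, another early crest regulator, ran the other way, with 5.58 and 5.14 in untreated caps and 5.47 and 4.29 in activin/RA caps, above its controls at 4.08 and 3.35. Its copy foxd3.S differed by -0.29 and -1.26. sox9.S (0.61), prdm1.S (0.59) and the Tfap2a inhibitor gene kctd15.L (0.70) were higher with MO3 than with MO1/2, as was id3.S, which the BMP list also holds. kctd15.L had 2.68 with MO1/2, 3.58 with MO3 and 4.97 in the control in untreated caps, and 3.09, 3.59 and 6.55 in activin/RA caps. Both reagents thus lay below its controls, as they did for prdm1.S, and for sox9.S only in untreated caps. Of 32 neural plate genes 1 rose, the tubulin gene tubb2b.S (0.82), with a median of 0.08.

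Mesoderm genes were called in both directions. Of 44 early and paraxial mesoderm genes 3 rose and 2 fell, against 2.02% and 1.42% of all genes. In both cultures 6 were higher and 15 lower, against 26.8% and 30.3% of all genes. The apelin receptor genes aplnr.S (2.39 in untreated and 0.06 in activin/RA caps) and aplnr.L passed although their difference was near 0 in activin/RA caps, and the ligand gene apln.L differed by 1.55 and 0.54. The presomitic regulator msgn1.L had 4.76 with MO1/2 and 3.34 with MO3 in activin/RA caps against 5.38 in the control, and lay at 2.19 or below in untreated caps. The somite regulator mespa.S had 5.83 and 4.84 in activin/RA caps against 6.65. The list's median was -0.35 in activin/RA caps and 0.11 in untreated caps. Of 23 notochord and organizer genes, 30 endoderm genes and 28 genes of intermediate mesoderm and pronephros 0 passed by limma, with medians of -0.14, -0.02 and -0.01. Of 31 muscle genes 1 rose, the calcium pump gene atp2a1.S (0.996), and of 18 blood and endothelium genes 2 rose, spib.S (0.86) and runx1.L (0.70), where 2.02% of all genes did. A second probe set of each of these 3 genes differed by -0.07, -0.07 and -0.08.

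The signalling lists held 2 to 4 called genes each, where 3.44% of all genes were called. Of 31 retinoic acid response genes 1 rose, the retinoic acid carrier gene crabp2.L (1.01), and 1 fell, the caudal homeobox gene cdx4.L. In activin/RA caps, where it was expressed, cdx4.L had 7.62 with MO1/2, 6.82 with MO3 and 8.60 in the control, and in untreated caps its signals lay between 2.06 and 2.96. The 5 probe sets of crabp2.L ranged from -0.12 to 1.01 and the 2 of cdx4.L from -0.85 to 0.01. Of 26 Wnt targets 2 rose and 1 fell: both copies of the cyclin D1 gene, ccnd1.L (0.81) and ccnd1.S (0.49), and cdx4.L. Of 31 targets of FGF and ERK1/2, the conventional MAP kinases, 2 rose and 2 fell. Those that rose were the phosphatase gene dusp4.S (0.71) and phlda1.L (0.76), and those that fell were cdx4.L and the immediate early gene ier2.L (-0.62). Of 20 Notch targets 1 rose, the feedback inhibitor gene nrarp.S (0.75), and 1 fell, the ligand gene dlc.L (-0.74). In both cultures 12 were higher and 2 lower, where 26.8% and 30.3% of all genes were (list median 0.20). The Hairy-family genes esr-5.L (-1.15) and hes7.2.L (-1.03), lower with MO3, are not in this list. Among the 7 measured genes of ERK3 and its partners 0 passed by limma, and the widest difference was 0.39 for tfap2a.S (limma adjusted p = 0.35).

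The study's title concerns epithelial architecture, and the 4 junction and polarity lists held 1 called gene, with 3.44% called over all genes. Among 25 adherens junction, 12 desmosome and hemidesmosome and 18 apicobasal polarity genes 0 passed by limma. The E-cadherin gene cdh1.S had 2.35 with MO1/2, 3.53 with MO3 and 5.55 in the control in untreated caps, and 4.08, 4.08 and 6.11 in activin/RA caps (difference 0.59 ± 0.22 SE, limma adjusted p = 0.203). The cornified envelope gene evpl.L differed by 0.54 (limma adjusted p = 0.228). Of 26 tight junction genes, each read at its brightest probe set (for cldn7.L not the one called above), marveld3.L fell: 8.68 with MO1/2 and 7.74 with MO3 in untreated caps against 7.42 in the control, and 7.86 and 7.28 in activin/RA caps against 7.44 (difference -0.76 ± 0.15 SE, limma adjusted p = 0.00486). marveld3 encodes a four-span protein of the tight junction. Of 51 actin cytoskeleton genes 4 rose: actn4.L (0.80), the calponin gene cnn2.L (0.71), the myosin light chain gene myl9.L (0.70) and actg1.S (0.41). The plastin gene lcp1.S fell by 0.76. Signals of actn4.L (2.36 to 3.65) and lcp1.S (1.97 to 3.14) on the 4 arrays were below the median of all values. Of 42 matrix and integrin genes only thbs1.S passed.

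Stress lists were read because morpholinos can provoke p53 and immune responses. Of 33 p53 response genes 2 rose and 1 fell. For this list and those that follow, 2.02% of all genes rose and 1.42% fell. The cell cycle inhibitor gene cdkn1a.L had 5.22 with MO1/2, 6.31 with MO3 and 5.88 in the control in untreated caps, and 6.09, 6.74 and 6.57 in activin/RA caps, so that the control lay between the reagents. sesn1.L rose by 0.60 and gadd45g.L fell by 0.67. Of 37 innate immune and interferon genes 3 rose: the cytokine signalling inhibitor gene socs3.S (0.83), gbp1 (0.69) and the NF-kappaB inhibitor gene nfkbia.L (0.59). socs3.S had 4.07 with MO1/2, 5.31 with MO3 and 2.99 in the control in activin/RA caps, and 3.76, 4.19 and 7.58 in untreated caps. Of 22 apoptosis genes 2 rose, birc2.S (0.64) and casp10.L (0.63), and 0 fell. The other copy casp10.S was lower with MO3 (-0.48) and did not pass by limma. In both cultures 4 genes of this list were higher and 8 lower (median -0.07). Of 42 heat shock and unfolded protein response genes only the disulfide isomerase gene pdia6.S passed, with 8.33 and 9.38 in untreated caps and 7.87 and 8.73 in activin/RA caps.

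Of 63 maternal transcripts, RNAs stored in the egg, 3 rose and 3 fell, against 2.02% and 1.42% of all genes. fbxo43.L, the oocyte transcription factor gene tbpl2.L (-0.70) and the lipid droplet gene plin2.S (-0.52) were lower with MO3, and ddx25.L, the germ cell regulator gene dazl.L (0.70) and patl2.L (0.59) were higher. tbpl2.L had 5.498 with MO1/2, 4.83 with MO3 and 2.79 in the control in untreated caps. The list's medians against the shared control were 0.59 with MO1/2 and 0.44 with MO3 in untreated caps, and 0.28 and 0.13 in activin/RA caps. Of 79 replication and mitosis genes 5 rose and 0 fell: nuf2.L, the helicase subunit gene mcm5.S (0.82), the ribonucleotide reductase gene rrm1.L (0.76) and both copies of ccnd1, with a list median of 0.04. Of 55 respiratory chain genes 3 rose, atp5mc1.S, atp5pb.L (1.02) and uqcrc2.S (0.81), and ndufb10.S fell by 0.72. Of 32 glycolysis genes gapdh.L rose by 0.85 and the lactate dehydrogenase gene ldhb.S fell by 0.67. Of 83 ribosomal protein genes rpl17.S alone passed and fell by 0.51. Of 48 splicing genes 0 passed by limma, and their median absolute difference was 0.07.

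**Figure D5:**
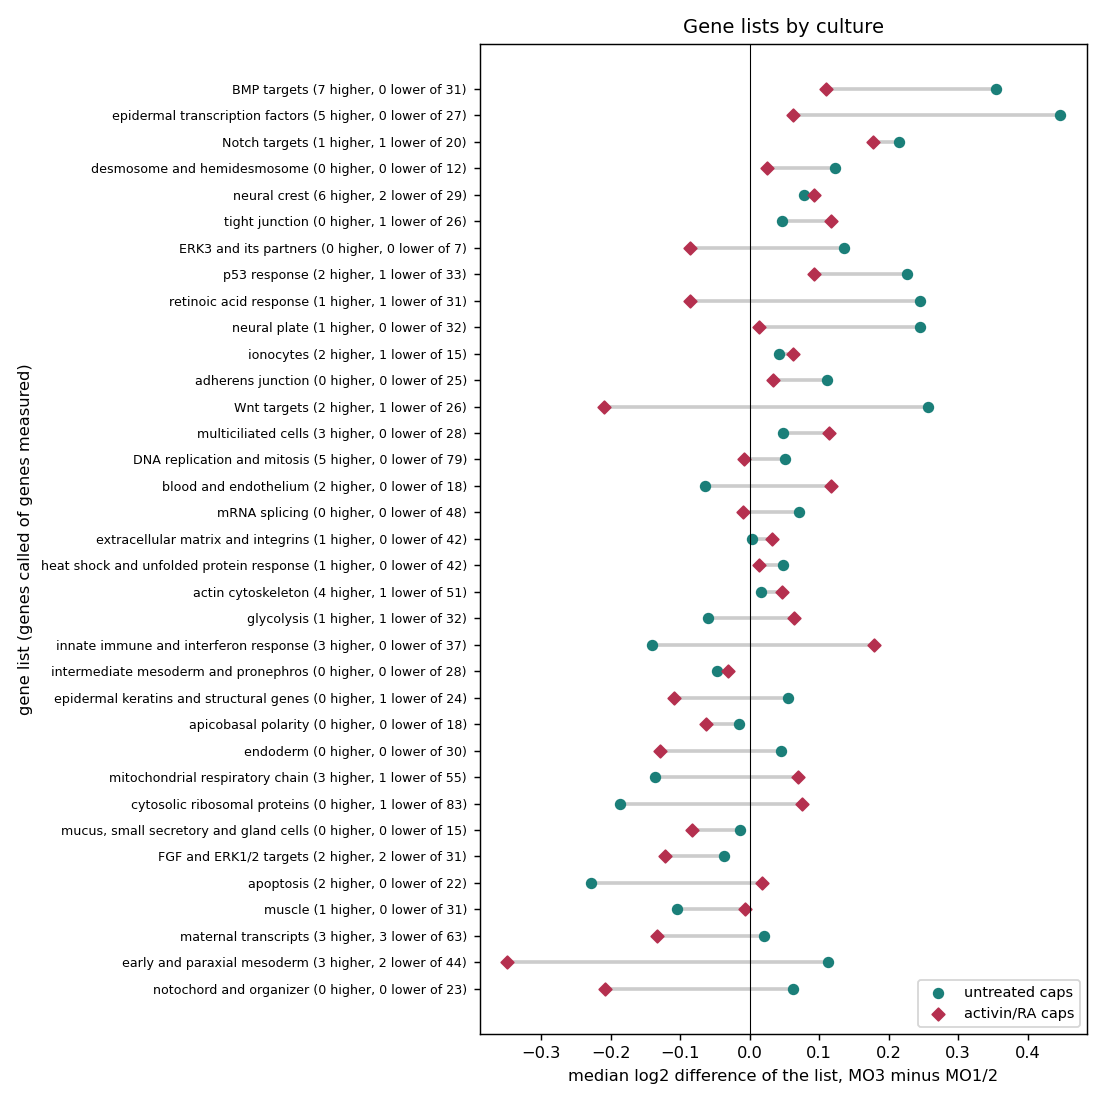
Median log2 difference (MO3 minus MO1/2) of the 35 gene lists in untreated caps (green circles) and activin/RA caps (red diamonds), with the genes called of those measured in brackets. BMP targets and epidermal transcription factors lie highest, at 0.35 and 0.45 in untreated caps, and the mesoderm list lies lowest in activin/RA caps, at -0.35.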

How the data were processed

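Total RNA (250 ng per sample) was amplified, per the labels' protocols, and the authors normalized the scanned arrays by robust multi-array average (RMA), per the series' design text. The deposited intensity values run from 2.13 to 18347, a linear scale as read from the values themselves. They carry no detection call, and differences of weak signals are compressed. log2 was taken with no constant added. The table holds 32635 probe sets, of which the 96 controls with the prefix AFFX were dropped, with no filter on level. Reporter probe sets (prefix RPTR) stayed among those tested. Platform annotation gave 15495 probe sets 1 symbol, 279 several and 16765 no symbol; 15384 matched the RefSeq table of assembly Xenopus_laevis_v10.1 by identifier and 2 symbols were updated.

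The 4 ERK3 morpholino arrays were fitted with limma 3.58.1 in R 4.3.3 (reagent plus culture, intensity trend), checked on simulated data. Benjamini-Hochberg adjustment covered all 32539 p-values. The number of arrays limits the precision. The members and the 35 gene lists were chosen with earlier results of these data known. Named genes are the 12 higher and 12 lower with the largest mean difference among called probe sets with the same sign in both cultures, an informative symbol and, on 1 or more of the 4 arrays, a signal exceeding the median of all values. Other genes named are the probe sets 2-fold apart in both cultures and, for each list, its called genes and up to 4 with the largest difference. Called genes below the fourth place of a list (such as klf17.L, szl.L and mespa.S) and remaining examples were named after their values were seen. Alternatives changed the arrays, the block, the variance model, the scaling, the constant and the filter.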

Additional observations from a re-analysis of the deposited data

Results flagged for a closer look

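At 4 probe sets the reagents differed at least 2-fold in opposite directions in the cultures. With 1 array per group the difference between cultures was not tested. The keratin gene krt70.L was 1.51 higher with MO3 in untreated caps (4.11 with MO1/2 and 5.62 with MO3, control 8.25) and 1.53 lower in activin/RA caps (7.40 and 5.87, control 9.42), a difference of -1.53. The Kit ligand gene kitlg.L differed by 1.47 and -1.19. The unnamed probe sets Xl2.5813.1.S1_at and Xl2.25551.2.S1_a_at differed by 1.54 and -1.15 and by 2.04 and -1.35. At all 4 the control array lay above both reagents in each culture. Among the gene lists, the median differed in sign between untreated and activin/RA caps by more than 0.1 on either side for early and paraxial mesoderm (0.11 and -0.35), Wnt targets (0.26 and -0.21) and innate immune and interferon genes (-0.14 and 0.18).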

How the results depend on the processing

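The main counts were 472 higher and 323 lower. With all 6 arrays 0 and 0 passed, and leaving out each ERK3 array from that model gave 0 to 0 (unadjusted p under 0.05 at 894 to 2165 probe sets). Without culture as a block 0 and 0 passed (479 at an unadjusted p under 0.05). The counts were 273 and 184 without the intensity trend, 278 and 199 after quantile normalization, 253 and 175 after cyclic loess, and 563 and 485 after median centring. All 24 named genes passed under quantile normalization, cyclic loess and an added constant of 16, and all 795 called probe sets kept their direction under these 3. The 2-fold counts of 31 and 13 became 13 and 7 with the constant of 16, and 236 and 157 at 1.5-fold. In the activin/RA pair alone aplnr.L reversed to -0.0806. Of 106 called probe sets that the text or lists follow singly, 106 missed the threshold with 6 arrays, 27 after quantile normalization, 33 after cyclic loess and 12 with the constant of 16. The cause of these shifts was not tested. The main fit already paired the arrays by culture, and the labels number no replicates. Signal over background is unknown without detection calls.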

Other observations

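For a minority of called genes the control was nearer to MO1/2 than to MO3 in both cultures, by small margins in some; these examples were chosen after their values were seen. After reep6.L the largest mean differences of this kind were those of rnf13.L, a ubiquitin ligase gene (1.13), rassf7.L (0.99), the glutathione synthesis gene gclc.S (0.96), the disulfide isomerase gene pdia6.S (0.95), the selenoprotein P gene selenop1.L (-0.94) and the proteasome subunit gene psmd14.L (0.90). rnf13.L had 6.41 in the control, 6.83 with MO1/2 and 8.12 with MO3 in untreated caps, and 7.03, 6.60 and 7.57 in activin/RA caps. selenop1.L had 6.39, 6.54 and 5.35, and 6.18, 6.07 and 5.38. gclc.S had 5.49, 6.13 and 6.54 in untreated caps and 3.79, 4.55 and 6.06 in activin/RA caps, with both reagents above the control.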
